A study of Mus musculus with 7 samples.

Results

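The genes described here encode the enzymes that build cholesterol and fatty acids. These 34 genes, out of 21878 in the count table, were chosen by their function with earlier results of these data known. They form a sterol branch of 19 genes, from acetoacetyl-CoA thiolase (Acat2) to the last reductase (Dhcr7) and the cholesterol carrier Stard4, and a fatty acid branch of 15 genes for synthesis, desaturation, elongation and activation. All 34 were found in the table and passed the filter on low counts. Messenger RNA was sequenced in 7 libraries from grafts of B16F10, an established pigmented mouse melanoma line, carried by C57BL/6J females. NC, the controls, had 3 libraries, and the labels do not say what these animals were given. The treated group (MBZ in the labels) held 4 libraries from mice dosed by mouth every 2 days with Zelnorm at 1.25 mg/kg. Tegaserod, sold as Zelnorm, activates a serotonin receptor of the gut, and the labels do not spell out MBZ. Nothing in the labels tells the animals' age, the graft's site or whether each library had its own mouse, so p-values measure the spread between these samples, which may be technical. Libraries are called by their columns in the table (NC_5, NC_6, NC_10, MBZ_9, MBZ_11, MBZ_13 and MBZ_15).

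Cholesterol is built from acetyl-CoA through mevalonate, isoprenoid diphosphates, squalene and lanosterol, and the same acetyl-CoA pool feeds fatty acid synthase. Both routes are switched on in most cells by the sterol regulatory element-binding proteins (SREBPs), of which SREBP2 (Srebf2) is best known for sterol genes and SREBP1 (Srebf1) for fatty acid genes. When sterols are plentiful, the INSIG proteins hold SREBP and its escort SCAP in the endoplasmic reticulum, and the genes are transcribed less. Proliferating tumour cells use both branches for membranes.

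Most of these transcripts were slightly less abundant in the MBZ grafts, and the sterol genes all pointed the same way. All 19 sterol genes had a fitted log2 fold change below 0, with a median of -0.18 and a range from -0.28 (Pmvk) to -0.05 (Ebp). Of the 15 fatty acid genes, 10 lay below 0 and 5 above it, with a median of -0.04 and a range from -0.27 (Scd2) to 0.08 (Elovl5). Of both branches 29 members lay below 0, against 49.8% of the 12997 genes tested, whose median was 0.00. No member passed the test across all genes (edgeR quasi-likelihood test, Benjamini-Hochberg adjusted p under 0.05; smallest adjusted p = 0.295, for Scd2). The same test called 0.0308% of all genes, 4 that were higher and 0 that were lower. At an unadjusted edgeR p under 0.05, 12 members were lower, 7 of the sterol and 5 of the fatty acid branch, and 0 were higher, against 3.38% of all genes lower and 6.94% higher. In 11 members, 6 sterol and 5 fatty acid genes, every MBZ library lay below every NC library, a pattern that 4.27% of all genes showed, and in 0 members every MBZ library lay above, against 5.33% of all genes. Genes with a mean of at least 20 CPM (counts scaled to library size) leaned downward in general, as 56.3% of them lay below 0, 4.3% were lower at an unadjusted p under 0.05 and 5.15% had every MBZ library below every NC library. Of the 34 members 32 reached that level, and of these 29 lay below 0 and 12 were lower at that p. Because the members were chosen with earlier results of these data known, these shares describe the list and do not test it.

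**Figure D1:**
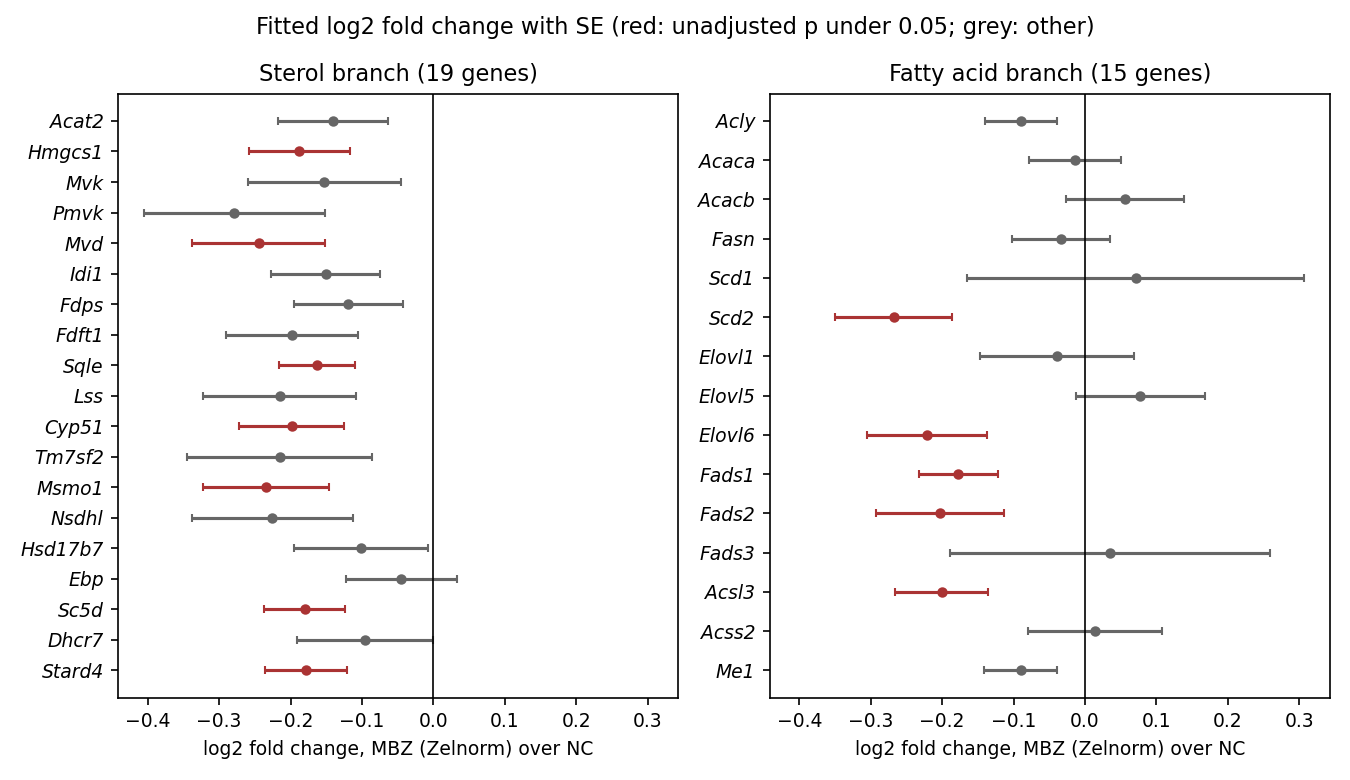
Fitted log2 fold change of MBZ over NC (horizontal axis) for each member (vertical axis), with the SE as bars, sterol branch on the left and fatty acid branch on the right. All 19 sterol genes sit left of 0, whereas 5 of 15 fatty acid genes sit right of it, and the 12 red points are the members with an unadjusted p under 0.05.

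Libraries of the same group differed on the scale of the difference between groups. On the mean log2 CPM of the 19 sterol genes, set to 0 at the NC mean, NC_5 lay at 0.12, NC_6 at -0.04 and NC_10 at -0.08, and the MBZ libraries lay at -0.10 (MBZ_9), -0.13 (MBZ_11), -0.31 (MBZ_13) and -0.16 (MBZ_15). The groups did not overlap on this level, but MBZ_9 and NC_10 were nearly equal. NC_5 was the highest library for 16 of 19 sterol genes, and MBZ_13 the lowest for 14. The mean of the 15 fatty acid genes ran from -0.01 to 0.02 in NC and from -0.12 to -0.0025 in MBZ, and there the groups overlapped, with MBZ_11 inside the NC range. As a share of all counts, the sterol genes took 0.287% to 0.324% in NC and 0.247% to 0.285% in MBZ, and the fatty acid genes 0.574% to 0.608% and 0.508% to 0.546%. The fatty acid share separated the groups although its mean log2 level did not. The share weights genes by their counts and the level weights them equally. Scd2 alone held 54606 of the 113791 fatty acid counts in NC_5 and 35474 of 94017 in MBZ_13. Its CPM was lower in every MBZ library than in every NC library. The share therefore does not speak for the branch as a whole, and the share without Scd2 was not computed.

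**Figure D2:**
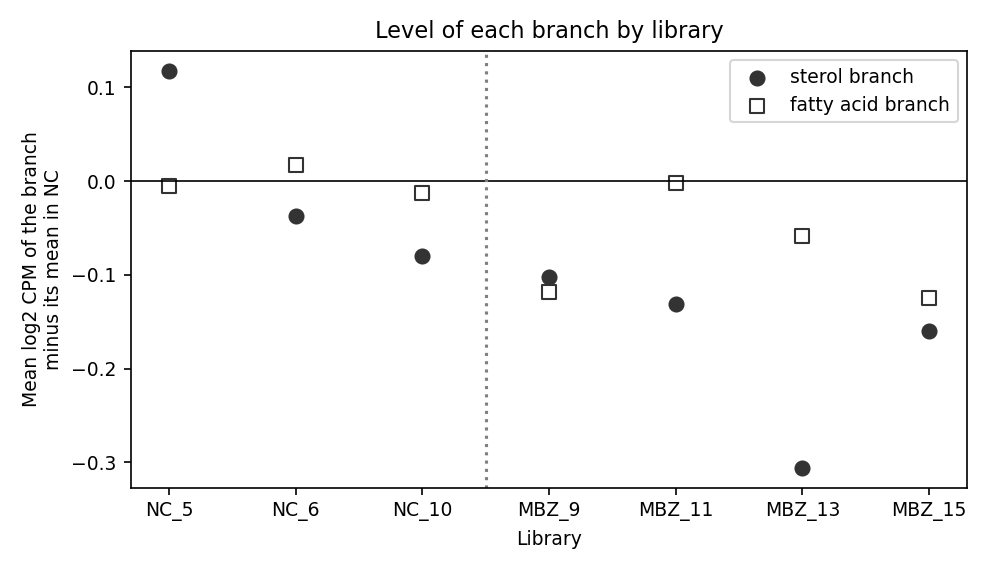
Mean log2 CPM of each branch minus its mean over the NC libraries (vertical axis) for the 7 libraries (horizontal axis), with filled circles for the sterol and open squares for the fatty acid branch. The sterol level was highest in NC_5 (0.12) and lowest in MBZ_13 (-0.31), while the fatty acid level of MBZ_11 (-0.0025) was close to the NC mean.

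Promoter sequences of members are shown next, because genes that respond to SREBP are known to carry its binding element together with a CCAAT box read by the factor NF-Y. RefSeq start sites on GRCm38.p6 were matched for 27 of the 34 members, 15 sterol and 12 fatty acid genes, and the 250 bases before each start were searched on both strands. The members without a window were Sqle, Fdps, Fdft1, Stard4, Scd1, Scd2 and Fads1. The 6 windows printed are examples with 3, 2, 1 or 0 CCAAT copies, from members with an unadjusted p under 0.05, 4 of the sterol and 2 of the fatty acid branch, and capitals mark matches to CCAAT or ATTGG and to TCACNCCAC or its reverse complement GTGGNGTGA.
Hmgcs1 (chr13:119690101-119690350, plus strand): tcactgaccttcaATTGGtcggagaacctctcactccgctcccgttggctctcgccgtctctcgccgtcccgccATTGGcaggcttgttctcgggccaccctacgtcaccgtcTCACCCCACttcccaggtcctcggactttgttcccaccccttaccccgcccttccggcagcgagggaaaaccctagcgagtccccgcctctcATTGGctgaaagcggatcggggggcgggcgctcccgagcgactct
Mvd (chr8:122443423-122443672, minus strand): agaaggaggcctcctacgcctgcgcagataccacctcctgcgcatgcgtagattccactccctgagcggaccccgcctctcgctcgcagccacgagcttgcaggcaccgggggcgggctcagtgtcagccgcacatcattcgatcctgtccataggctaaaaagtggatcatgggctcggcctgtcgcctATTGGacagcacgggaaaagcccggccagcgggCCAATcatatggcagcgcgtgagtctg
Cyp51 (chr5:4104698-4104947, minus strand): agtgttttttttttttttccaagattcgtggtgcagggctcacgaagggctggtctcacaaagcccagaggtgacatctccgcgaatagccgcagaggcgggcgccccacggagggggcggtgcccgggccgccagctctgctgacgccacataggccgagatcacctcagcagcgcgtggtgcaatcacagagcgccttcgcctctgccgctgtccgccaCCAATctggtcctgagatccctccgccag
Msmo1 (chr8:64733579-64733828, minus strand): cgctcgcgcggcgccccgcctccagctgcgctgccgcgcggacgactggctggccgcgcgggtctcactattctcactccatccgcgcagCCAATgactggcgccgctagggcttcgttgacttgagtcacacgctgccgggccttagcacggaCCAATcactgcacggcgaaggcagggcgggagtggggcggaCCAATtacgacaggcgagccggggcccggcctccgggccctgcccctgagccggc
Acsl3 (chr1:78657575-78657824, plus strand): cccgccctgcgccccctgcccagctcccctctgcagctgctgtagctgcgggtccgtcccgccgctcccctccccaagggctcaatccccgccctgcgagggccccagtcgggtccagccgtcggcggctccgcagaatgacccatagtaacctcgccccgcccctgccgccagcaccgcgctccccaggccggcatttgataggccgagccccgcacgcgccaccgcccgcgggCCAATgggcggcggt
Fads2 (chr19:10101504-10101753, minus strand): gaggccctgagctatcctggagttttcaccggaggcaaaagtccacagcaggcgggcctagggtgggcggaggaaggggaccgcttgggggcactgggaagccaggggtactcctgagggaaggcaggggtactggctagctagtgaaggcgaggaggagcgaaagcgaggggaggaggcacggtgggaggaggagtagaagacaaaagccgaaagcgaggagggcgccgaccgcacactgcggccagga

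The CCAAT letters were present in 14 of 15 sterol genes (93.3%) and 8 of 12 fatty acid genes (66.7%), against 40.3% of the 10028 tested genes with a window and 37.5% of all 27025 genes. A gene counted when any of its windows matched, and the 27 members had 32 windows. Some windows lay inside the annotated gene, at later start sites. These were the windows of Acaca and Acacb and those that held the copies of Dhcr7 and Me1. Msmo1 and Hmgcs1 held 3 copies each and Mvd 2, whereas the Fads2 and Elovl6 windows held 0. Members without an unadjusted p under 0.05 also held several copies, with 5 in Mvk and 3 each in Hsd17b7 and Fasn. The SREBP letters TCACNCCAC were found in 1 member, Hmgcs1, from 137 to 129 bases before the start, and in 1.28% of the tested genes. A 10-base form of the SREBP element, which contains the shorter letters, was found in 0 of 27 members and 0.0598% of tested genes, and the E-box CACGTG in 4 of 27 members (14.8%) and 9.81%. The GC box GGGCGG stood in 21 of 27 members (77.8%) and 63.3% of tested genes. By branch it stood in 14 of 15 sterol genes (93.3%) and 7 of 12 fatty acid genes (58.3%). A match describes letters in a window, not a bound site. Forms of the SREBP element that differ from the searched letters were not looked for, so a window without a match may still hold one.

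In the early, mevalonate part of the sterol branch, Hmgcs1, the cytosolic HMG-CoA synthase, was measured at 169.6, 165 and 163 CPM in NC_5, NC_6 and NC_10 and 129.7, 148, 144 and 162 CPM in MBZ_9, MBZ_11, MBZ_13 and MBZ_15. All 4 MBZ libraries were lower than all NC libraries, with MBZ_15 just under NC_10 (log2 fold change -0.19 ± 0.07 (SE), edgeR unadjusted p = 0.0234, adjusted p = 0.394). Mevalonate diphosphate decarboxylase, Mvd, which yields isopentenyl diphosphate, stood at 97.8, 80.0 and 78.8 CPM in NC_5, NC_6 and NC_10 and 77.7, 76.9, 64.2 and 70.0 CPM in MBZ_9, MBZ_11, MBZ_13 and MBZ_15. The groups separated there as well, by a narrow gap between NC_10 and MBZ_9 (log2 fold change -0.24 ± 0.09 (SE), edgeR unadjusted p = 0.0249, adjusted p = 0.396). Phosphomevalonate kinase, Pmvk, had the most negative fitted change of the branch (log2 fold change -0.28 ± 0.13 (SE), edgeR unadjusted p = 0.0516, adjusted p = 0.491). Its values were 49.2, 36.1 and 44.5 CPM in the NC libraries and 32.9, 41.2, 29.9 and 38.7 CPM in the MBZ libraries, and the groups overlapped because NC_6 lay below MBZ_11 and MBZ_15. The thiolase Acat2 (-0.14 ± 0.08), mevalonate kinase Mvk (-0.15 ± 0.11) and the isomerase Idi1 (-0.15 ± 0.08) had log2 fold changes of the same sign, and their groups overlapped.

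The isoprenoid and squalene steps followed the same direction. Fdps, farnesyl diphosphate synthase, was the most abundant sterol transcript per length of exon (384 CPM per kilobase), and was measured at 644, 557 and 550.0 CPM in the NC libraries and 568, 574, 487 and 522 CPM in the MBZ libraries. NC_5 stood above all others and the remaining NC libraries lay inside the MBZ range (log2 fold change -0.12 ± 0.08 (SE), edgeR unadjusted p = 0.151, adjusted p = 0.646). Squalene epoxidase, Sqle (chr15:59315092-59331193 on GRCm38.p6), the oxygen-requiring entry into sterol rings, stood at 268, 259 and 248 CPM in the NC libraries and 233, 237, 217 and 236 CPM in the MBZ libraries. Every MBZ library was below every NC library, and the spread inside each group was small (log2 fold change -0.16 ± 0.05 (SE), edgeR unadjusted p = 0.0116, adjusted p = 0.317). Squalene synthase, Fdft1, had 113 ± 14.1 CPM (SD, n = 3) in NC and 98.8 ± 8.84 CPM (SD, n = 4) in MBZ (log2 fold change -0.20 ± 0.09 (SE), edgeR unadjusted p = 0.0577, adjusted p = 0.498), with overlapping groups. Its exons share 774 bases with Ctsb on the opposite strand, and Ctsb, a cathepsin gene, stood at 717 ± 40.9 CPM (SD, n = 3) in NC and 926 ± 44.2 CPM (SD, n = 4) in MBZ (log2 fold change 0.37 ± 0.06 (SE), edgeR unadjusted p = 9.44e-05, adjusted p = 0.0646); the library kit keeps the strand, but no source used here tells whether the counting used it. Lanosterol synthase, Lss, closed this stretch with 144 ± 11.4 CPM (SD, n = 3) in NC and 124 ± 18.1 CPM (SD, n = 4) in MBZ and overlapping groups.

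Among the enzymes that turn lanosterol into cholesterol, Cyp51, the lanosterol demethylase and second of the branch per length (104 CPM per kilobase), was measured at 479.7, 435 and 406 CPM in the NC libraries and 405, 379.6, 346 and 404 CPM in the MBZ libraries. The groups did not overlap, but the lowest NC library, NC_10, and the highest MBZ library, MBZ_9, were nearly equal (log2 fold change -0.20 ± 0.07 (SE), edgeR unadjusted p = 0.0222, adjusted p = 0.392). Msmo1, the methylsterol monooxygenase, stood at 232, 229 and 202 CPM in the NC libraries and 215, 186, 163 and 188 CPM in the MBZ libraries. Its groups overlapped through MBZ_9, which exceeded NC_10 (log2 fold change -0.23 ± 0.09 (SE), edgeR unadjusted p = 0.0238, adjusted p = 0.394). Sc5d, a sterol desaturase (chr9:42251592-42264300), stood at 56.9, 59.3 and 56.0 CPM in the NC libraries and 49.2, 50.6, 50.1 and 52.6 CPM in the MBZ libraries. All MBZ libraries were below all NC libraries (log2 fold change -0.18 ± 0.06 (SE), edgeR unadjusted p = 0.00934, adjusted p = 0.3). Stard4, which carries cholesterol between membranes and is not an enzyme, stood at 75.5, 79.8 and 80.5 CPM in the NC libraries and 72.8, 66.4, 69.7 and 69.0 CPM in the MBZ libraries, again without overlap (log2 fold change -0.18 ± 0.06 (SE), edgeR unadjusted p = 0.011, adjusted p = 0.315).

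None of the other late sterol genes had an unadjusted p under 0.05. Nsdhl (-0.23 ± 0.11), a sterol dehydrogenase, and Tm7sf2 (-0.21 ± 0.13), a sterol reductase, had log2 fold changes between those of Cyp51 and Msmo1, with larger SEs. Hsd17b7 (-0.10 ± 0.09), the reductase Dhcr7 (-0.10 ± 0.10) and the isomerase Ebp (-0.05 ± 0.08) had the changes nearest to 0 of the branch. In all 5 genes the groups overlapped, and MBZ_9 exceeded at least 1 NC library in Nsdhl, Hsd17b7, Ebp and Dhcr7.

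**Figure D3:**
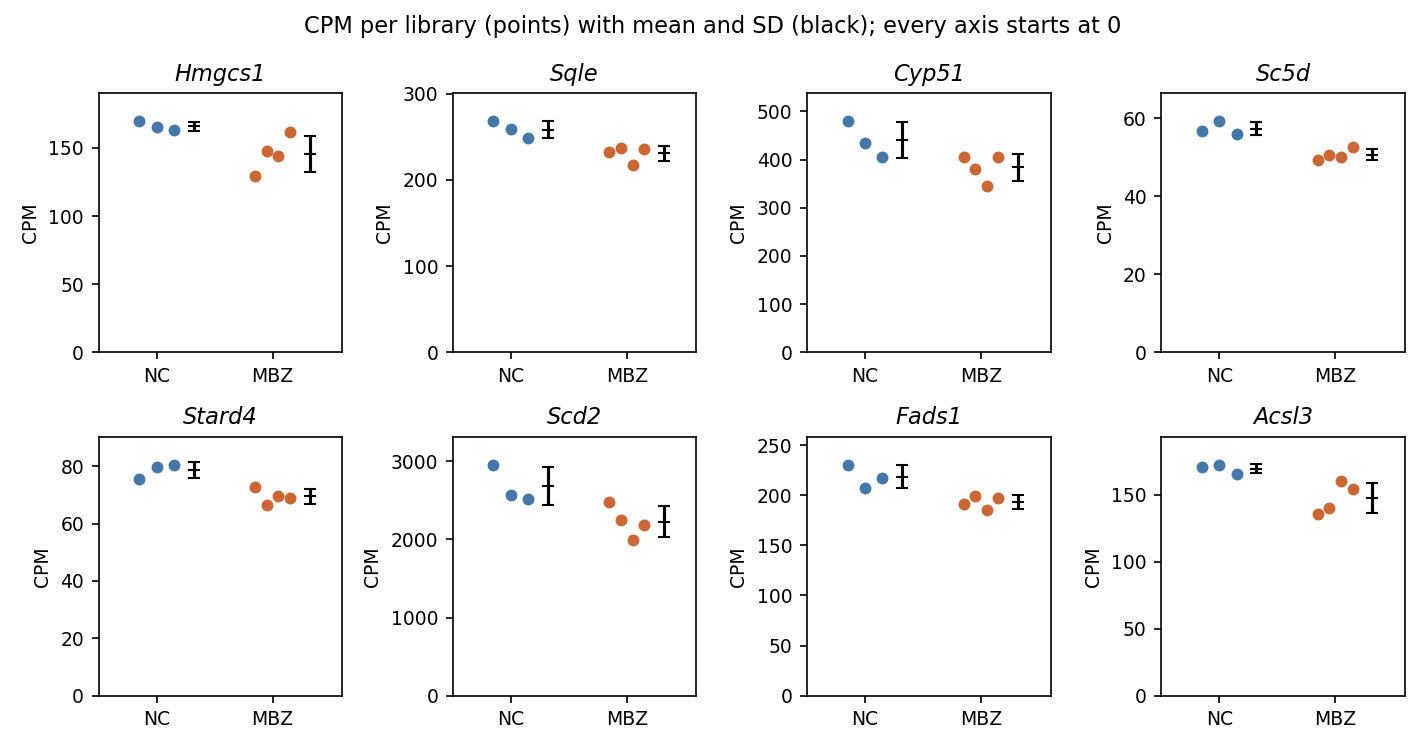
CPM (vertical axis, from 0) of 8 members with an unadjusted p under 0.05 and no overlap between groups, with 1 point per library for NC and MBZ and the mean with SD in black. Mvd also met both conditions and is not drawn. In each panel the 4 MBZ points lie below the 3 NC points, by a gap that is small against the level of the gene.

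In the fatty acid branch, the desaturases held the largest change. Scd2 (chr19:44293676-44306864), a stearoyl-CoA desaturase best known from brain, was the most abundant member of either branch (444 CPM per kilobase) and was measured at 2958, 2573 and 2519 CPM in the NC libraries and 2486, 2244, 1996 and 2189.8 CPM in the MBZ libraries. Every MBZ library was below every NC library, and the MBZ mean was 2229 ± 202 CPM (SD, n = 4) against 2683 ± 239 (SD, n = 3) (log2 fold change -0.27 ± 0.08 (SE), edgeR unadjusted p = 0.00813, adjusted p = 0.295). Scd2 was the 1 member called by DESeq2 (log2 fold change -0.28, adjusted p = 0.0426), a tool that called 0.292% of genes as lower. At an unadjusted DESeq2 p under 0.05, 16 members were lower, against 2.81% of all genes. Over the alternatives the adjusted p of Scd2 ran from 0.0426 to 0.999. The counts of Scd1 and Scd2 are uncertain to the extent that reads fit both of these related genes.

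Fads1 and Fads2, the front-end desaturases that make polyunsaturated fatty acids, were both lower. Fads1 (chr19:10182877-10196874) stood at 230.4, 207 and 217 CPM in the NC libraries and 191, 199.6, 185 and 197 CPM in the MBZ libraries, without overlap (log2 fold change -0.18 ± 0.06 (SE), edgeR unadjusted p = 0.00873, adjusted p = 0.296). Fads2 stood at 288, 238 and 229 CPM in the NC libraries and 232, 234, 195 and 212 CPM in the MBZ libraries, with NC_10 below MBZ_9 and MBZ_11, so its groups overlapped (log2 fold change -0.20 ± 0.09 (SE), edgeR unadjusted p = 0.0461, adjusted p = 0.472). Fads3, the third gene of the cluster, was scarce, with 68 to 127 counts per library and a log2 fold change of 0.04 ± 0.22. Acsl3, an acyl-CoA synthetase that activates long-chain fatty acids at the endoplasmic reticulum and lipid droplets, was measured at 170.4, 172 and 165 CPM in the NC libraries and 136, 139.8, 160.0 and 154 CPM in the MBZ libraries. MBZ_9 and MBZ_11 were lowest and no MBZ library reached the NC range (log2 fold change -0.20 ± 0.07 (SE), edgeR unadjusted p = 0.0113, adjusted p = 0.316). The elongase Elovl6, which extends palmitate, stood at 62.3, 71.8 and 79.4 CPM in the NC libraries and 56.3, 62.0, 63.6 and 62.3 CPM in the MBZ libraries. NC_5 lay inside the MBZ range while NC_6 and NC_10 lay above it (log2 fold change -0.22 ± 0.08 (SE), edgeR unadjusted p = 0.0247, adjusted p = 0.395). The other elongases differed little, with log2 fold changes of -0.04 ± 0.11 for Elovl1 and 0.08 ± 0.09 for Elovl5.

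The enzymes of the core pathway, from citrate to palmitate, differed little between the groups. Fasn, fatty acid synthase itself, was measured at 879, 917 and 915 CPM in the NC libraries and 809, 885, 987 and 850.2 CPM in the MBZ libraries. The MBZ libraries lay on both sides of the NC values, with MBZ_13 highest and MBZ_9 lowest (log2 fold change -0.03 ± 0.07 (SE), edgeR unadjusted p = 0.632, adjusted p = 0.911). Acly, which cleaves citrate to supply cytosolic acetyl-CoA to both branches, stood at 676, 648 and 639.8 CPM in the NC libraries and 587, 635, 614 and 625 CPM in the MBZ libraries. The groups did not overlap, yet the change was small (log2 fold change -0.09 ± 0.05 (SE), edgeR unadjusted p = 0.107, adjusted p = 0.591). Me1, the malic enzyme that supplies NADPH, showed the same picture at 114, 120.4 and 115 CPM in the NC libraries and 108, 107, 108 and 113 CPM in the MBZ libraries (log2 fold change -0.09 ± 0.05 (SE), edgeR unadjusted p = 0.111, adjusted p = 0.596). The carboxylases Acaca (-0.01 ± 0.06) and Acacb (0.06 ± 0.08) and the acetate-activating Acss2 (0.01 ± 0.09) had log2 fold changes near 0, with overlapping groups.

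**Figure D4:**
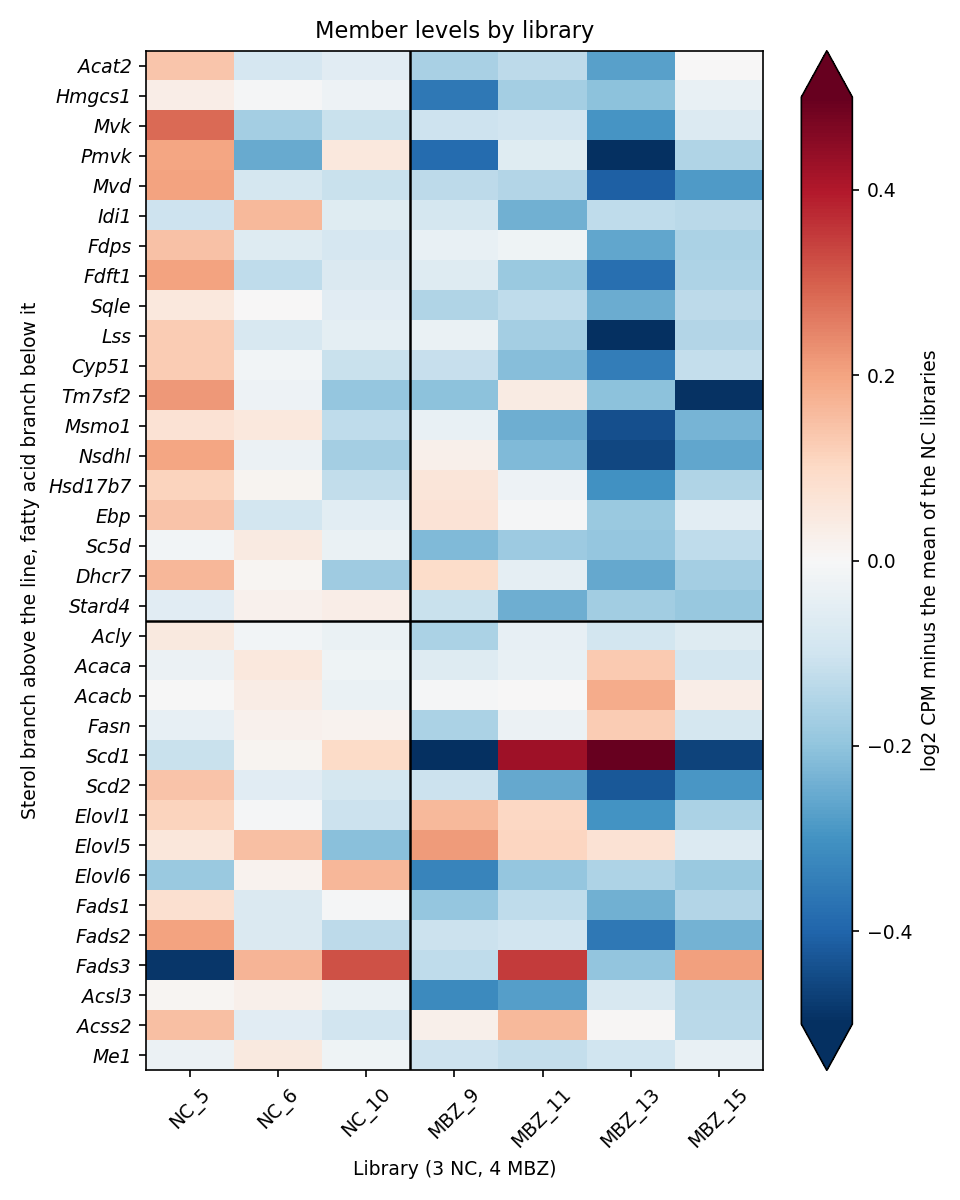
Colour gives log2 CPM minus the mean of the NC libraries for each member (vertical axis) in each library (horizontal axis), with the colour scale ending at -0.5 and 0.5. NC_5 is the reddest and MBZ_13 the bluest library in the sterol rows, and Scd1 stands apart with MBZ_11 and MBZ_13 above and MBZ_9 and MBZ_15 below the NC libraries.

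Scd1, the stearoyl-CoA desaturase of fat and liver, differed from Scd2 in its pattern and is described in full by a choice made after its values were seen. It was measured at 358, 390.4 and 414 CPM in the NC libraries and 269.8, 519, 559.6 and 281 CPM in the MBZ libraries. MBZ_11 and MBZ_13 lay above all NC libraries and MBZ_9 and MBZ_15 below them, so the group means were near equal while the MBZ spread was 37.7% of its mean, the widest of all members (log2 fold change 0.07 ± 0.24 (SE), edgeR unadjusted p = 0.768, adjusted p = 0.946). Adipocyte markers were compared with it. Of 10 adipocyte markers 9 were tested, and 8 had a log2 fold change above 0 (median 0.54, 0 at an unadjusted p under 0.05). The summed level of those 9 was 64.9 (NC_5), 118 (NC_6), 162 (NC_10), 47.9 (MBZ_9), 162 (MBZ_11), 379 (MBZ_13) and 55.5 CPM (MBZ_15). The libraries with the most and the fewest adipocyte transcripts, MBZ_13 and MBZ_9, were those with the highest and lowest Scd1. In MBZ_11, above all NC libraries in Scd1, the summed CPM of the markers equalled that of NC_10 to 3 digits, while their mean log2 CPM was 3.44 against at most 3.15 in NC. Scd1 was not alone, as MBZ_13 was the highest library for 4 fatty acid genes (Scd1, Fasn, Acaca and Acacb) and the lowest for 4 others. None of the adipocyte markers was at 0 in all libraries, and their part in the values of Scd1 or of the other fatty acid genes was not tested.

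**Figure D5:**
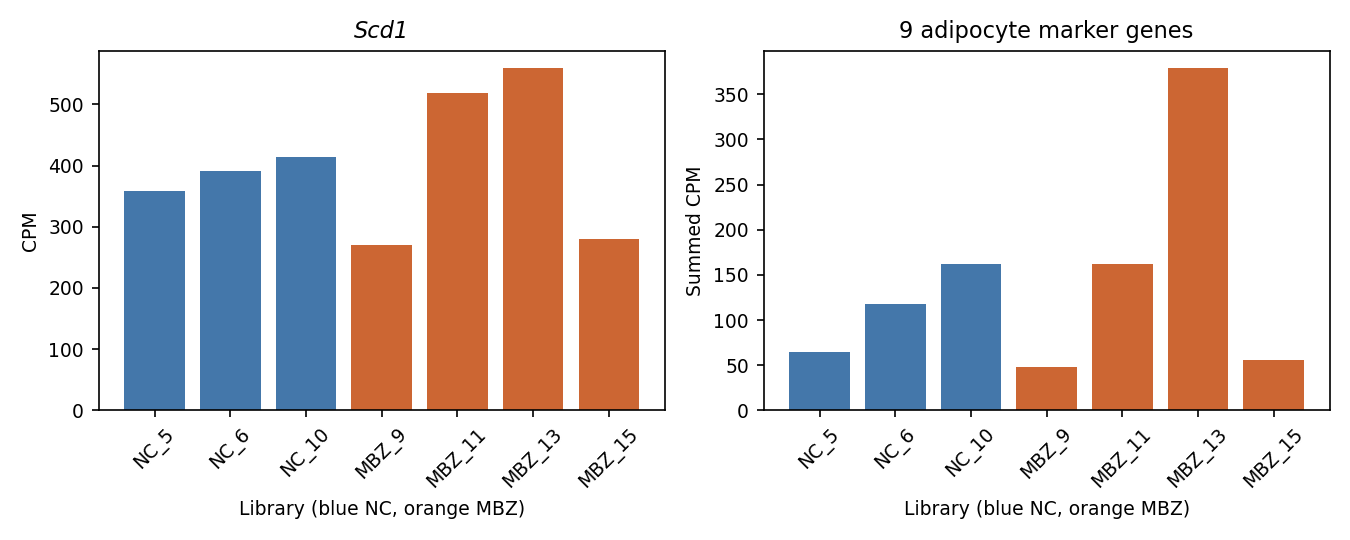
CPM of Scd1 (left) and summed CPM of the 9 tested adipocyte markers (right) on axes from 0, with 1 bar per library, NC in blue and MBZ in orange. MBZ_13 is highest in both panels (559.6 and 379 CPM) and MBZ_9 lowest (269.8 and 47.9 CPM).

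Regulators of the pathways were read from lists of other genes. Srebf2 stood at 523, 446 and 469.8 CPM in the NC libraries and 429, 433, 425 and 420.2 CPM in the MBZ libraries, with every MBZ library below every NC library (log2 fold change -0.17 ± 0.06 (SE), edgeR unadjusted p = 0.0172, adjusted p = 0.362). Srebf1 stood at 167, 147 and 156 CPM in the NC libraries and 132, 147, 131 and 134 CPM in the MBZ libraries, with MBZ_11 just above NC_6 and the other MBZ libraries below NC (log2 fold change -0.20 ± 0.06 (SE), edgeR unadjusted p = 0.00949, adjusted p = 0.3). Insig1, an SREBP target whose product holds SREBP back, was lower without overlap, at 255 ± 19.8 CPM (SD, n = 3) in NC and 184 ± 11.3 CPM (SD, n = 4) in MBZ (log2 fold change -0.47 ± 0.07 (SE), edgeR unadjusted p = 3.77e-05, adjusted p = 0.0559). Scap, the gene of the SREBP escort, had a log2 fold change of -0.01 ± 0.07 and overlapping groups.

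Of 29 other genes for sterol synthesis, sensing, uptake and export, 27 were tested, and 0 passed the adjusted threshold. At an unadjusted p under 0.05, 5 were lower and 4 higher (median log2 fold change -0.01). Besides Insig1 and Srebf2, the lower side included the lipoprotein receptor gene Lrp8 (-0.22 ± 0.09) and, named after its values were seen, Tmem97 (-0.24 ± 0.11). The higher side held Nr1h3, the sterol-sensing receptor LXR alpha (0.97 ± 0.26), Mylip, a ubiquitin ligase gene (0.23 ± 0.09), and the cholesterol exporter Abca1 (0.36 ± 0.14), with Abcg1 (0.50 ± 0.21) named after its values were seen. Nr1h3 was scarce, at 2.27, 1.73 and 2.33 CPM in the NC libraries and 3.22, 5.51, 4.61 and 3.20 CPM in the MBZ libraries, with every MBZ library above every NC library. Of 33 other fatty acid and glycerolipid genes 29 were tested, of which 4 were lower at an unadjusted p under 0.05 and 0 higher (median -0.03), namely Srebf1, the NADPH-supplying Idh1 (-0.20 ± 0.06), the elongation-cycle reductase Hsd17b12 (-0.17 ± 0.06) and Lpin1 (-0.25 ± 0.11), a phosphatidate phosphatase. In fatty acid oxidation, 2 of 18 genes were lower at that p, Ehhadh (-0.25 ± 0.08) and Hadh (-0.16 ± 0.06), 0 were higher, and the median was -0.04. The lists had 0 genes past the adjusted threshold.

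In bulk tissue, fewer cells of a type and less RNA per cell cannot be told apart, so marker lists are given beside these results. The 10 pigment cell markers, the defining genes of the graft, were abundant in every library (summed level 26128 to 29567 CPM in NC and 28297 to 30563 in MBZ) with a median log2 fold change of 0.06, and the 10 proliferation genes had a median of -0.01. Among the pigment markers, 1 had an unadjusted p under 0.05, Mitf, with overlapping groups (log2 fold change 0.60 ± 0.16 (SE), edgeR unadjusted p = 0.00341, adjusted p = 0.215). Leukocyte markers were above 0 in 10 of 10 genes (496 to 578 CPM in NC, 546 to 772 in MBZ), 8 of them at an unadjusted p under 0.05. Their median log2 fold change was 0.72, but most of the sum was Arhgdib (mean 328 CPM in NC and 345 in MBZ), at 0.07 ± 0.07. Macrophage markers were above 0 in 10 of 10 (218 to 445 and 415 to 607 CPM), 6 of them at that p. Fibroblast markers were above 0 in 8 of 8 (681 to 1774 and 1213 to 2416 CPM), 2 of them at that p. Endothelial markers were above 0 in 5 of 8 (199 to 317 and 222 to 266 CPM), with 0 higher and 1 lower at that p. Type I interferon genes were above 0 in 14 of 14 tested (392 to 705 and 861 to 1128 CPM), 13 of them at that p. Skeletal muscle markers ran from 5.76 to 43.4 CPM in NC and from 7.37 to 374 CPM in MBZ, and were highest in MBZ_15. Of the 10 muscle markers tested, 10 were above 0 (median 2.90), 6 of them at that p. The 12 skin gland and keratinocyte markers summed to 2.56 to 3.74 CPM in NC and 1.55 to 17.1 CPM in MBZ, were highest in MBZ_11, and included Mc5r at 0 in every library. The part of these cell types in the sterol values was not tested.

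The counts depended on single libraries. Sterol genes lower at an unadjusted p under 0.05 numbered 4 instead of 7 without NC_5 or without MBZ_13, where 2.37% and 2.94% of all genes were lower at that p. They numbered 10 without NC_10 or without MBZ_9, where 2.72% and 3.61% of all genes were. Fitted values stayed below 0 in all 7 leave-one-out fits for 17 of 19 sterol genes, the exceptions being Mvk and Ebp, and for 7 of 15 fatty acid genes. An unadjusted p under 0.05 was kept in all 7 fits by 6 members, Sqle, Sc5d, Stard4, Scd2, Fads1 and Acsl3. For these counts over all 7 fits, the share of all genes was not computed, so they have no background to be read against. The median of the fatty acid branch, -0.04, was between -0.02 (without MBZ_15) and -0.09 (without NC_10), and also passed 1.5 times its size without NC_5 (-0.07), MBZ_9 (-0.07), MBZ_11 (-0.08) or MBZ_13 (-0.09). Scd1 moved from -0.12 to 0.22 in its log2 fold change over these fits. Library totals ran from 16903598 to 19666598 counts.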

How the data were processed

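The values deposited by the authors are unnormalized counts for each gene, in 7 columns. Per the submitters' processing notes, Trimmomatic, HISAT2, Cufflinks, HTSeq and DESeq were used, without versions or order, and the builds named are GRCh38 and GRCm38. Annotation, strand setting and filters: not given in the sources used here. Per the labels' protocols, libraries were made from TRIzol-extracted RNA with a stranded mRNA kit. Columns carry a group name but no replicate number of the titles, so each was assigned to its group only, and the labels give no batch.

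Genes kept by filterByExpr (12997) were scaled by TMM (factors 0.986 to 1.01) and compared with edgeR 4.0.16 (quasi-likelihood test, R 4.3.3), adjusted by Benjamini-Hochberg over all genes tested at 0.05. The SE of a log2 fold change came from its F statistic. CPM are counts over the TMM-adjusted library size, and branch levels are means of log2 CPM with a prior count of 2. A floor of 3 counts equals 0.152 to 0.178 CPM and covers counting error only. Levels per length used the exon union of the GENCODE vM21 basic annotation. The fit was tested on simulated data. DESeq2 1.42.0, limma 3.58.1 (voom), RLE and upper quartile scaling, other filters and leaving out libraries were alternatives.

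The members, lists and tests were chosen with earlier results of these data known. Values are given in full for members with an unadjusted p under 0.05 or non-overlapping groups, and for the 2 largest changes and the 2 highest mean CPM of each branch. Of other pathway lists, up to 6 genes with an unadjusted p under 0.05 were named, with the regulators Srebf1, Srebf2, Scap and Insig1 whatever their test; some genes of these lists are not reported here.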

Additional observations from a re-analysis of the deposited data

Results flagged for a closer look

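Mvk, mevalonate kinase, had 1 MBZ library far from the other 3, MBZ_13 at 54.1 CPM against 61.8, 62.1 and 63.3 CPM. The gap was 0.844 of the group's range, above what Dixon's test allows for 4 samples at the 95% level. It was the 1 result so marked among 36 tested in the MBZ group, and chance marks about 1 in 20.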

How the results depend on the processing

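The direction of the sterol branch held in every alternative, with medians of -0.13 to -0.20 when 1 library was left out and -0.17 without NC_5, MBZ_11 and MBZ_15, the libraries with the most muscle transcripts. For 237 of 238 values of the 17 members named by rule, which leave out Scd1, the sign was kept. The exception was Fasn, at 0.0018 without MBZ_9 (-0.0908 to 0.0018 over the leave-one-out fits). Most of these members were named for their p, separation or size of change in these same data, which favours a kept sign. Among the members not named by rule, Mvk, Ebp, Dhcr7, Acaca, Acss2, Elovl1, Elovl5, Fads3 and Scd1 took both signs over the alternatives. The median of the fatty acid branch was -0.11 without those 3 libraries and from -0.0921 (without NC_10) to -0.0211 (without MBZ_15) when 1 was left out. Without the 3 libraries, which leaves 2 in each group, 5 members were lower at an unadjusted p under 0.05 (1.4% of all genes), 18 had groups that did not overlap (17 lower and 1 higher, against 16.5% and 16.2% of all genes), and edgeR called 0 genes in all (547 had an unadjusted p under 0.05). edgeR called 4 genes in the full set, but 34 without a low-count filter and between 0 (without NC_5, where 977 had such a p) and 161 (without NC_10) when 1 library was left out (21 without MBZ_15). DESeq2 called 206 genes and 1 member, Scd2 (log2 fold change -0.28). When 1 library was left out, 8 to 14 members were lower at an unadjusted p under 0.05, against 2.37% to 4.45% of all genes. In 12 to 16 members every MBZ library lay below every NC library, against 6.47% to 10.1% of all genes. RLE scaling gave 13 members lower at that p (3.76% of all genes), upper quartile scaling 12 (3.8%) and limma voom 12 (3.35%). The cause of these changes was not tested. No paired analysis was possible because column names and sample titles share no replicate number. At 16903598 counts or more per library the lowest count of a member in any library was 68 (Fads3) and every other member had at least 312.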
